A study of Mus musculus with 30 samples.

Results

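Ribosomal protein genes of the cytosolic ribosome were followed in 3T3-L1 cells, a line of mouse fibroblasts able to become adipocytes in a hormonal medium. Members were taken by gene symbol: all symbols of the form Rpl or Rps, a number and at most 1 letter, together with Rplp0, Rplp1, Rplp2 and Rpsa. The rule found 83 genes, 32 of the small subunit and 51 of the large subunit, among 57226 gene rows. RNA sequencing had been made from 30 cultures in 6 groups of 5. In 3 groups the cells had been exposed to quizalofop-p-ethyl (QpE), an ester herbicide, at 50 µM, and the other 3 were labelled as controls. Each kind was sampled at 6 h, 24 h and 12 days. All groups shared the cell line and a differentiation medium with a phosphodiesterase inhibitor and insulin. What vehicle the controls received is not given in the sources used here. All cultures carry the label of differentiated cells, and the 5 cultures of a group are numbered as separate culture replicates, so the p-values measure the spread between these cultures of 1 cell line.

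Each ribosome pairs a small subunit, which reads the mRNA, with a large subunit, which joins the amino acids. Nearly every ribosomal protein is present as 1 copy per ribosome, so cells make these proteins in similar numbers. Their mRNAs are short and abundant, and most belong to the 5′TOP class, which starts with a C followed by a run of pyrimidines and whose translation is controlled by mTORC1. Mammalian genomes hold many processed pseudogenes of these genes, which arose when spliced ribosomal protein mRNAs were copied back into DNA. Fat cell differentiation starts with cell division and a growth response to insulin, both of which draw on ribosome production.

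The copies bear on every level below, because a short read from a ribosomal protein mRNA can match its gene and a copy equally well. The following coding sequences, from their first base on, show how little separates a member from its most abundant copy, with the base that differs in capitals (all other letters are shared).
Rps2: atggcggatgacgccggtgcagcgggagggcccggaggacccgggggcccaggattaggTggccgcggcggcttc
Rps2-ps13: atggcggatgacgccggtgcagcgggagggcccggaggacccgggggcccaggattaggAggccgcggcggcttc
Rpl41 and Gm10076: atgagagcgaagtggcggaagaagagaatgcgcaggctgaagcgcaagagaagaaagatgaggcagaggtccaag
Rpl23a and Rpl23a-ps3: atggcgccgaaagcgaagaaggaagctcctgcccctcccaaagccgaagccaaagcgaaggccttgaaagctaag
Rps12 and Rps12-ps3: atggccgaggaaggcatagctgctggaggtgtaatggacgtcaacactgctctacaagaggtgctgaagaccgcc
The first pair differed at 1 of the 75 bases shown and at 7 of the 879 bases of the Rps2 coding sequence. The coding sequence of Rpl41, shown whole but for its stop codon, was identical in the long noncoding gene Gm10076. Rpl23a and Rpl23a-ps3 differed at 1 of 468 bases, outside the stretch shown. Rps12 and Rps12-ps3, which the annotation calls protein coding, were identical over all 396 bases. The reads were 75 bases long, so a read inside an identical stretch cannot be assigned by its sequence.

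The transcription starts of members were examined for the letters of the 5′TOP class. RefSeq start sites (GRCm38.p6) were found for 61 of the 83 members. Below are 15 bases on each side of 7 of these starts, 5′ to 3′ on the gene's strand, with each CTTTC or CTTCC in capitals. Rpl35, Rpl38, Rps10 and Rplp2 show matches at or near the start, and Rps7, Rps18 and Rpl9 are genes whose levels changed below.
Rpl35, chr2:39005117-39005146, minus strand: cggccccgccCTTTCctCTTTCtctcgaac
Rpl38, chr11:114668565-114668594, plus strand: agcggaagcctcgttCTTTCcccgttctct
Rps10, chr17:27635230-27635259, minus strand: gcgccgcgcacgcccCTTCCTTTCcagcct
Rplp2, chr7:141447636-141447665, plus strand: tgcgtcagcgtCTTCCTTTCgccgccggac
Rps7, chr12:28635939-28635968, minus strand: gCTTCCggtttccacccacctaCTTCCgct
Rps18, chr17:33955651-33955680, minus strand: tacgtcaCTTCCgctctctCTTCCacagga
Rpl9, chr5:65391417-65391446, minus strand: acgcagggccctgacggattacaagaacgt
Within 20 bases of the start on the gene's strand, CTTTC occurred in 19 of 61 members (31.1%) and in 6.44% of 27025 genes. The related CTTCC, which overlaps CTTTC in the run CTTCCTTTC, occurred in 16 members (26.2%) and in 10.3% of genes. On either strand the shares were 34.4% against 11.8% for CTTTC and 42.6% against 20.5% for CTTCC. The ETS core CCGGAAG, searched over 250 bases before to 50 bases after the start, was present on the gene's strand in 16 members (26.2%) and in 5.395% of genes, and on either strand in 41.0% against 9.93%. TATAAA, the TATA box core, was found in 6 members (9.84%) and in 9.77% of genes on the gene's strand, and in 11.5% against 15.7% on either strand. These are matches of letters and not binding sites.

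Levels are FPKM, fragments per kilobase of transcript relative to all mapped fragments, summed over the transcripts of a gene. FPKM is scaled by length, but this alone does not make the levels of different genes comparable. A member's rank also depends on the FPKM listed under its copies. Rps2, for example, had a median of 31.8 FPKM alone and of 1999 FPKM with its copies added. Of the 83 members, 79 reached 1 FPKM in at least 5 libraries and entered the tests. Rpl10l, Rpl39l and Rps4l were listed at 0 in all 30 libraries, and Rpl3l was listed at 0 in 27 and at most at 0.0646 FPKM. These 4 are retrogene or tissue-restricted relatives of Rpl10, Rpl39, Rps4x and Rpl3, whose median levels here were 651, 435, 1082 and 311 FPKM. The annotation calls 3 members pseudogenes: Rps4l, Rpl6l with a median of 25 FPKM and Rpl32l with 0.992 FPKM. Rps27l, a p53-inducible relative of Rps27, was measured at a median of 137 FPKM and Rps27 itself at 882 FPKM.

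Most members were measured at high levels. A median over libraries of at least 100 FPKM was reached by 72 of the 79 tested members, and the middle of these medians was 532 FPKM. At the top stood the acidic stalk protein genes Rplp0, with a median of 2271 FPKM and a range of 1777 to 3126, and Rplp1, with 1796 FPKM (1334 to 2236). Rpl32 followed with 1374 FPKM and Rps14 with 1302 FPKM. The stalk recruits elongation factors and holds Rplp1 and Rplp2 in more than 1 copy per ribosome. Rplp2 was lower than its partners, at 470.4 FPKM. The ranges of Rplp0 and Rplp1 overlapped, as did those of Rpl32 and Rps14.

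**Figure D1:**
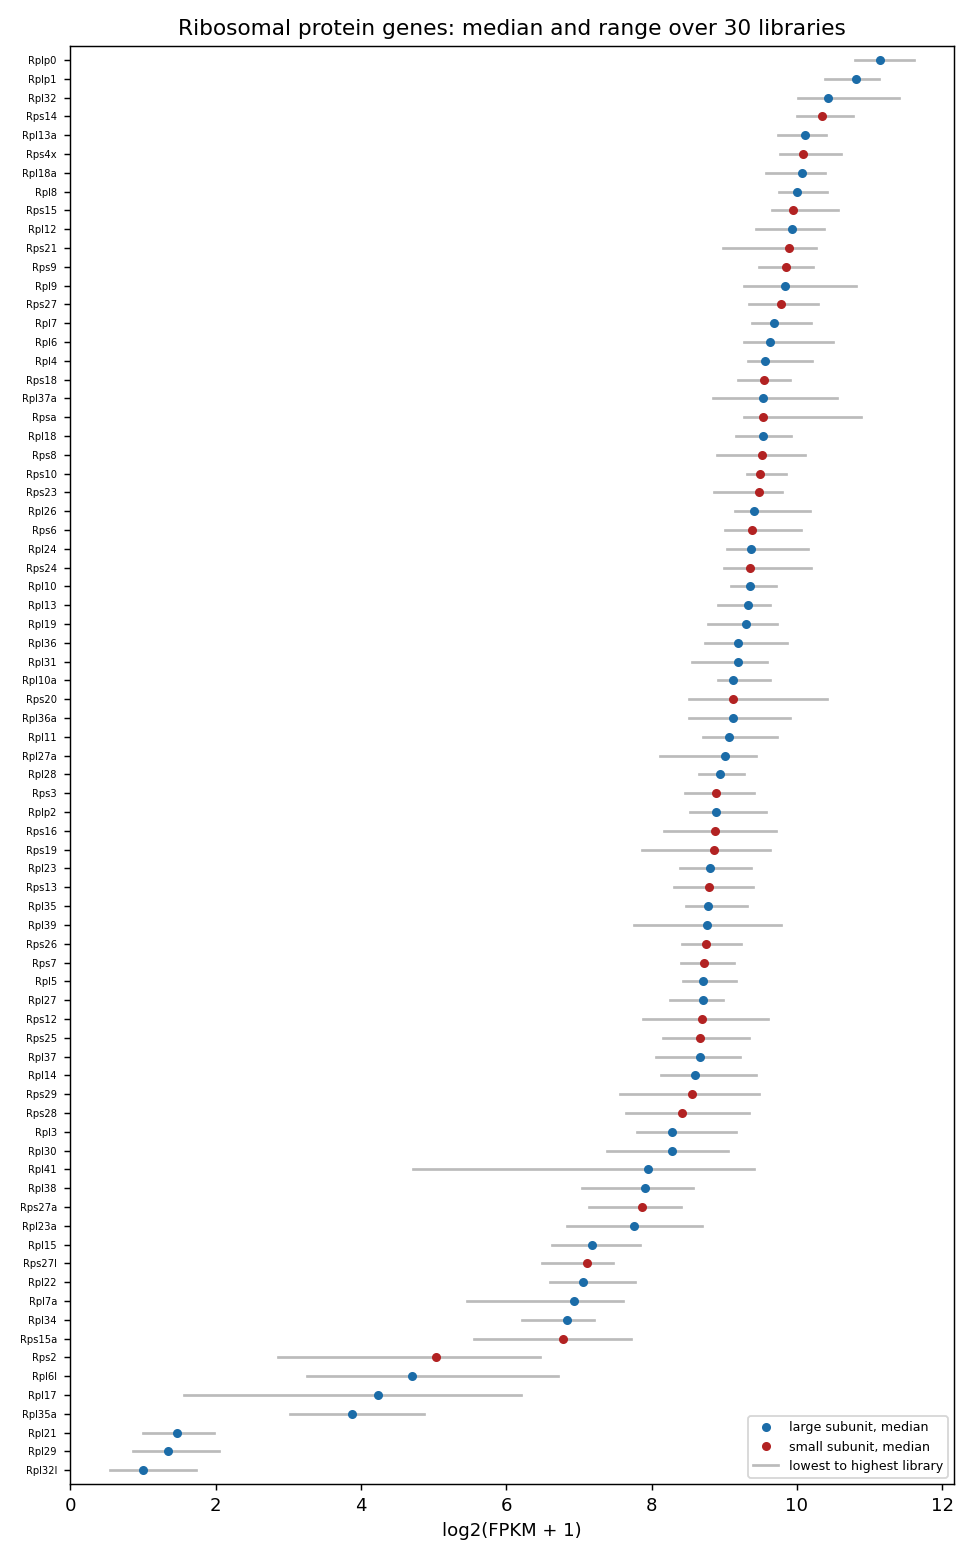
Level of 76 tested ribosomal protein genes as log2(FPKM + 1): the point is the median and the line spans the lowest to the highest of 30 libraries, with large subunit genes in blue and small subunit genes in red. Rplp0 lies at the top with 2271 FPKM, and Rpl32l, Rpl29 and Rpl21 lie at the bottom with under 2 FPKM.

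The lowest medians belonged to Rpl32l, Rpl29 (1.54 FPKM), Rpl21 (1.78), Rpl35a (13.7), Rpl17 (17.9), Rpl6l (25) and Rps2 (31.8). Rps2 lies at the mRNA entry side of the small subunit, and Rpl21, Rpl29, Rpl35a and Rpl17 are parts of every large subunit. For Rpl21, Rpl29, Rps2, Rpl17 and Rpl35a nearly all of the FPKM of the family was listed under the copies. Near-identical copies, defined as other annotated genes matching at least 80% of a member's coding sequence at 90% identity or more, numbered 911 for 75 of the 80 members with a coding sequence. Of these copies, 892 are annotated as pseudogenes and 314 had a median of at least 1 FPKM. The copies of Rpl21 summed to 797 FPKM, so that 99.8% of the combined FPKM lay outside Rpl21. For Rpl29 the copies held 484 FPKM (99.7%), for Rps2 1958 FPKM (98.4%), for Rpl17 97.9% and for Rpl35a 550 FPKM (97.4%). Rps2-ps13 alone, the X-linked copy printed above, was listed at 1427 FPKM, and Gm10243, a copy of Rpl35a, at 379.9 FPKM.

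Over 50% of the family's FPKM lay in copies for 19 members, which besides these 5 include Rpl23a (85.3%), Rpl34 (85.3%), Rpl7a (80.6%), Rpl41 (78.5%), Rps12 (69.2%), Rps27a (64.6%), Rps18 (62.4%) and Rpl3 (57.3%). Rpl41, the shortest member, was listed at 247 FPKM and its copies at 893, of which Gm10076 had 319.5. Rps12 was listed at 413 FPKM and Rps12-ps3 at 678. At the other end Rps3 and Rpl8 had no FPKM in copies, and Rpl37a, Rpl32 and Rpl4 had under 1% there. All copies together held 4.22 to 6.22% of a library's FPKM. The table's values cannot show how much of a copy's FPKM came from the copy and how much from its parent, and this was not tested.

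**Figure D2:**
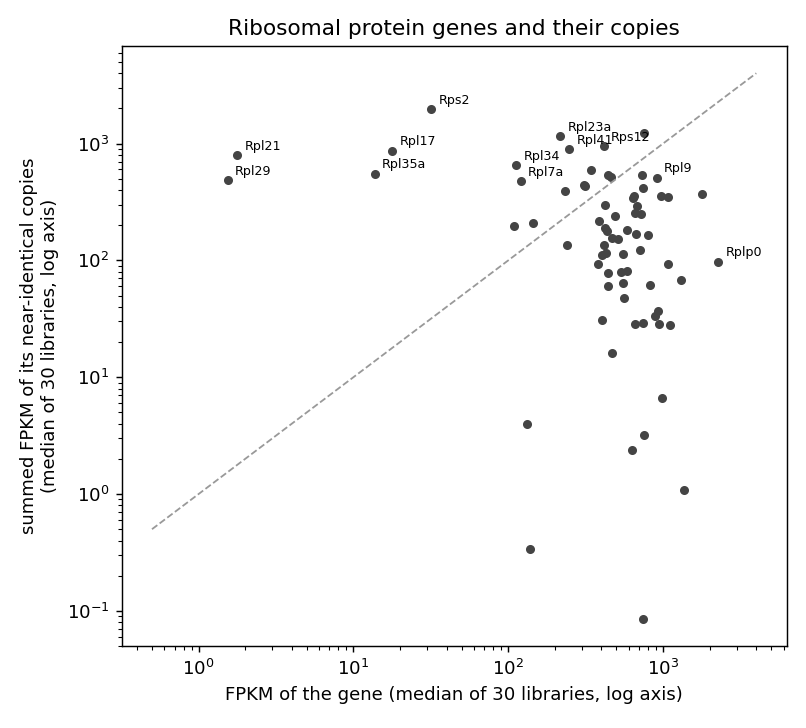
Median FPKM over 30 libraries of tested ribosomal protein genes (horizontal, log axis) and of the near-identical copies of each, summed (vertical, log axis), with a dashed line where both are equal. Members above the line are listed mostly under their copies; Rps2 has 31.8 FPKM against 1958 in its copies. Members whose copies were at 0 are left out.

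Members were then searched for libraries in which they dropped towards 0. With all transcripts of a gene summed, no member with a median of at least 10 FPKM fell under 1 FPKM, or under 10% of its median, in any library. Of the 79 tested members, 72 were at or above 10 FPKM in every library. The sum included transcripts that the assembly had left without a gene name and that were joined here to the single named gene of their locus, 51 transcripts in 26 members. Without the joined transcripts Rpl23a, a protein of the tunnel exit (GRCm38 11:78180932-78183584), was under 1 FPKM in 5 libraries. In QpE at 6 h its named transcripts stood at 0.0233 FPKM in replicate 3 and 0.906 in replicate 4, where the sums were 160.4 and 129. In controls they were 0.271 FPKM at 24 h in replicate 4, 0.536 at 12 days in replicate 1 and 0.711 at 12 days in replicate 5, against sums of 165, 114 and 119. By the 10% criterion a sixth library, control replicate 1 at 24 h, was low as well, at 1.34 FPKM against a sum of 116. Rpl27a was the other member to fall under 10% of its median by named transcripts alone, in QpE at 12 days in replicate 2 with 1.80 FPKM against a sum of 275. In these libraries the assembly had thus placed the gene's FPKM under unnamed transcripts. Rpl41 was the extreme case, with 99.0% of its FPKM in joined transcripts. The low values of Rpl23a and Rpl27a remained when intronic small RNA genes were counted as genes of the locus in joining. Ignoring those small RNA genes was chosen after the data had been seen.

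Across the 30 libraries the highest value of a tested member was between 1.45 and 37.5 times its lowest, with a median ratio of 2.13. Rps10 had the narrowest range. Of the 8 members over 4-fold, the widest were Rpl17 (37.5-fold), Rpl41 (26.6-fold), Rps2 (14-fold) and Rpl6l (12.1-fold). Rpl41 showed the widest range among members over 100 FPKM. Its levels were 179, 203, 330.5, 333 and 214 FPKM in control replicates 1 to 5 at 6 h, and 294, 237, 227, 334 and 102 FPKM in QpE at 6 h. At 24 h they were 258, 203, 327, 280.3 and 206 FPKM in controls and 442, 454, 272, 676 and 180.3 FPKM with QpE. At 12 days they were 181, 164, 351, 274 and 25.4 FPKM in controls and 160.0, 185, 286, 330.3 and 205 FPKM with QpE. The lowest library was control replicate 5 at 12 days, and the groups overlapped at each time. With the copies added the range of Rpl41 narrowed to 547 to 2055 FPKM.

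Short members varied more within groups than long ones. Across 77 members, Spearman's rho between coding length and the standard deviation within groups was −0.32. It was −0.42 in the 58 members with under 50% of their FPKM in copies and −0.49 with copies added (a description, as all members share the same libraries). Rps29, a zinc-binding protein of the small subunit with a coding sequence of 168 bases, had a within-group standard deviation of 0.45 on the log2 scale, and Rps7, with 582 bases, had 0.13. In QpE at 6 h Rps29 was at 337, 386, 391, 393 and 189 FPKM in replicates 1 to 5. In controls at 12 days it was at 323, 335, 493, 509.6 and 195 FPKM. Replicate 5 was the lowest library of both groups. Rpl39, with 153 bases, was also lowest there, at 238 FPKM in QpE at 6 h and 215 FPKM in controls at 12 days.

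All members together made up 8.81 to 12.6% of the FPKM of a library. In controls at 6 h the share was 9.64, 9.08, 10.7, 11 and 9.61% in replicates 1 to 5 (10.0 ± 0.807%, SD, n = 5), and with QpE it was 9.62, 9.61, 10.7, 11.1 and 8.93% (9.98 ± 0.874%). At 24 h the controls gave 10.6, 10.5, 11.1, 12.2 and 10.1% (10.9 ± 0.832%), and QpE gave 10.7, 11.1, 11.9, 12.6 and 9.90% (11.3 ± 1.05%). At 12 days the controls gave 9.22, 8.92, 11.2, 11.6 and 8.81% (9.94 ± 1.32%), and QpE gave 8.92, 9.37, 12.6, 11.6 and 10.0% (10.5 ± 1.57%). Groups overlapped at each time, and in each of the 6 groups the libraries with the highest shares were replicates 3 and 4. The large subunit genes summed to 1.37 to 1.61 times the small subunit genes, with the highest ratios in QpE at 12 days, 1.61 in replicate 5 and 1.56 in replicate 1.

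**Figure D3:**
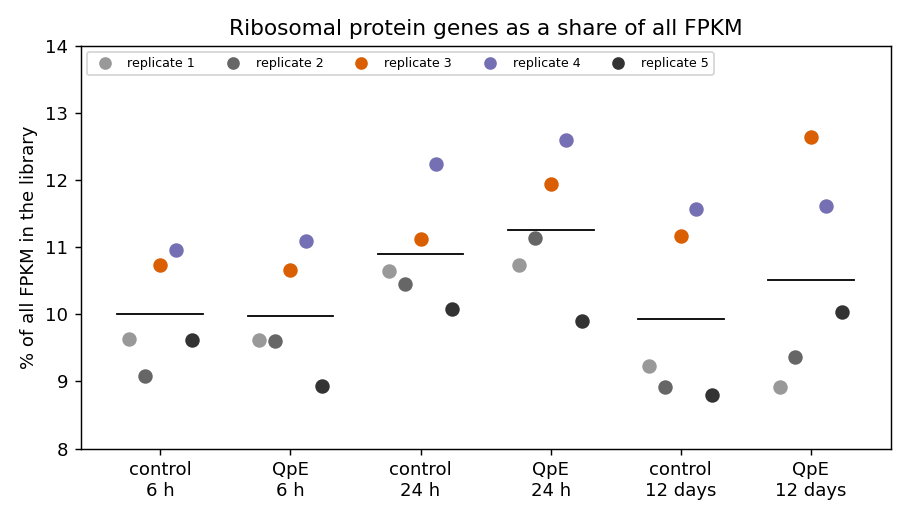
Summed FPKM of the 83 ribosomal protein genes as a percentage of all FPKM in each of 30 libraries, 1 point per culture replicate, with the group mean as a line; the vertical axis starts at 8%. Replicates 3 and 4 are the highest points in every group, and the range over all libraries is 8.81 to 12.6%.

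Culture replicate number went with the level of the members in every group. As the median over 79 members of the deviation from the group mean of log2(FPKM + 1), replicate 4 stood 0.14 to 0.27 above the mean in the 6 groups and replicate 3 stood 0.03 to 0.37 above it. The medians ranged from −0.27 to −0.02 for replicate 1, from −0.19 to 0.00 for replicate 2 and from −0.21 to −0.02 for replicate 5. The same medians over all 14484 genes tested stayed between −0.04 and 0.05. Replicates 3 and 4 were both above the other three libraries for 55 members in controls at 6 h, 54 in QpE at 6 h, 44 in controls at 24 h, 38 in QpE at 24 h, 64 in controls at 12 days and 53 in QpE at 12 days. Among all genes the shares with this order were 15.5, 13.9, 16.1, 19.4, 25.5 and 27.4%. These 2 numbers were singled out after the levels had been seen, and no test was made of them. Translation factors and other 5′TOP mRNAs showed the same order, with medians of 0.06 to 0.22 for replicate 4 and 0.02 to 0.34 for replicate 3 above the group mean.

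Laminin receptor precursor gene Rpsa, which encodes a small subunit protein, was one of the members with a large spread between replicate numbers. Its levels were 656, 649.9, 1146, 1250.0 and 623 FPKM in control replicates 1 to 5 at 6 h. In controls at 12 days they were 633, 633, 1001, 1378 and 1076 FPKM, and in QpE at 12 days 619.9, 1044, 1883, 1432 and 825 FPKM. Replicates 3 and 4 were the highest in the first and the last of these groups. The markers of fat cells also went with replicate number, mostly the other way: over 11 marker genes, the median deviations ranged from −1.40 to −0.22 for replicate 4 and from −1.05 to 0.20 for replicate 3, and those of replicates 1 and 2 lay between 0.11 and 0.99. Replicate 5 lay between −0.13 and 0.90, and in QpE at 24 h both its markers (−0.13) and its members (−0.21) were below the group mean. In controls at 12 days the mean log2 level of these markers was 5.79 to 6.11 in replicates 3 and 4 and 7.93 to 8.28 in the other three. At 6 h it was 2.92 to 3.94 in the libraries of both groups, although these too are labelled as differentiated cells. The fat cell hormone gene Lep, the defining marker missing from the tested set, was at 0 in 22 libraries. In bulk RNA, fewer cells of a type and less RNA per cell cannot be told apart. The part of cell makeup or of any handling shared by a replicate number in the members' levels was not tested.

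**Figure D4:**
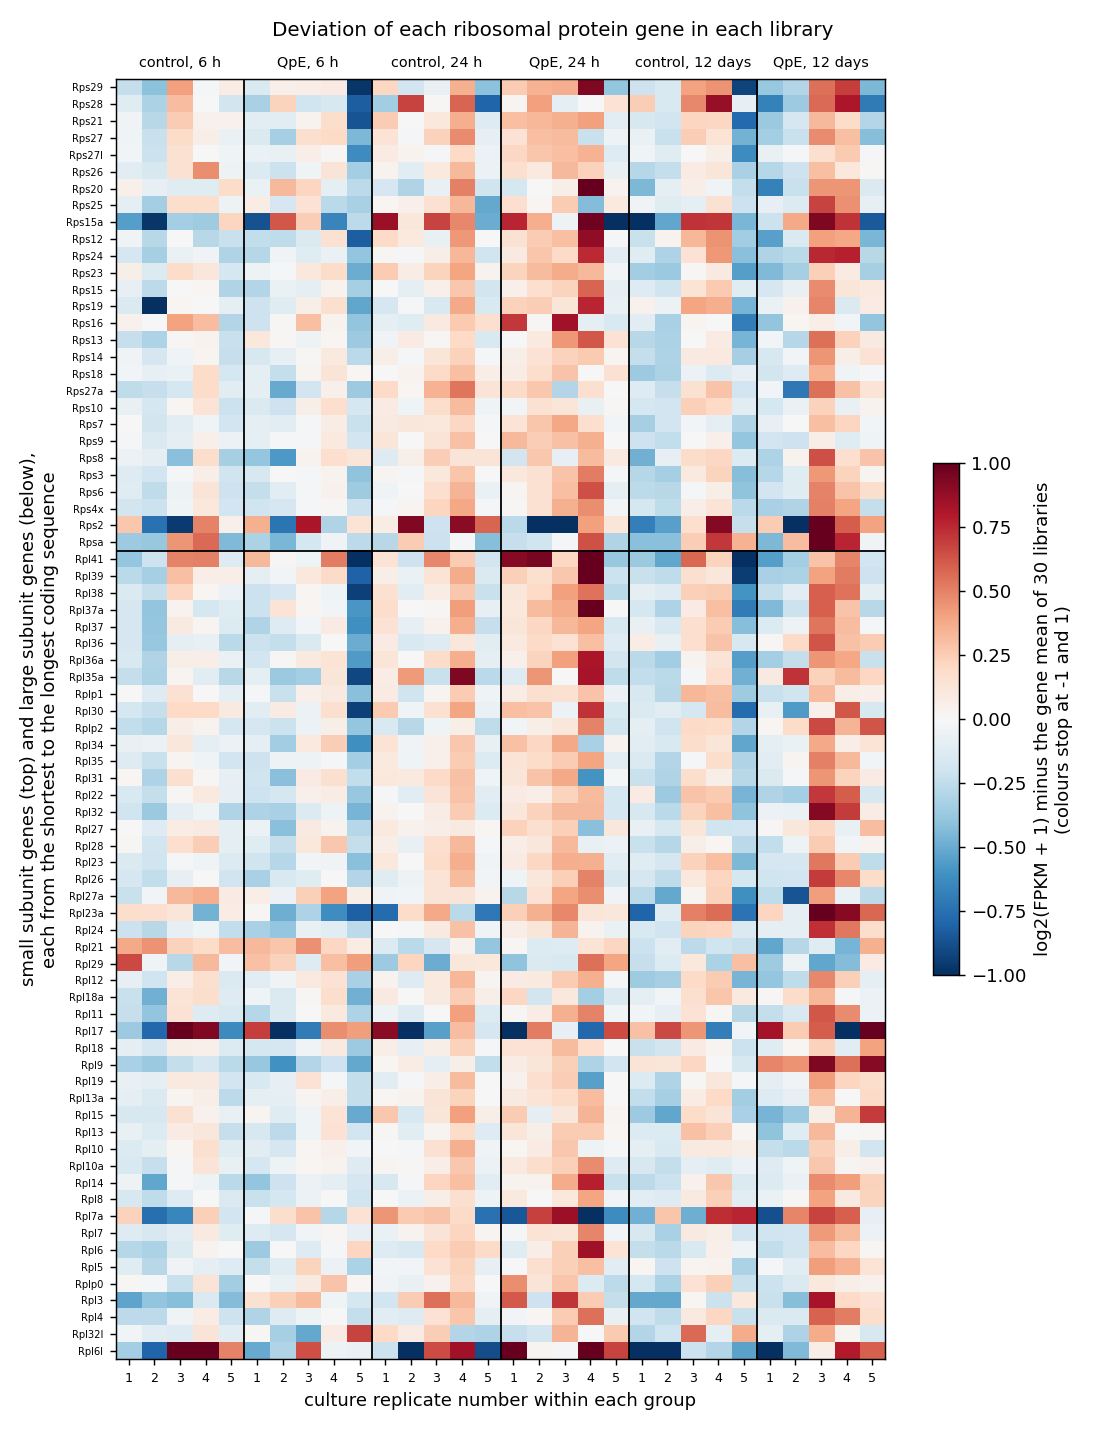
Deviation of log2(FPKM + 1) from the gene's mean over 30 libraries, for 76 tested ribosomal protein genes (rows, small subunit above, each ordered by coding length, genes without one last) in each library (columns, by group and replicate number); red is above and blue below the mean, and colours stop at −1 and 1. Columns 3 and 4 are mostly red beside columns 1, 2 and 5 of the same group, and the short genes Rps29, Rpl41 and Rpl39 are darkest blue in QpE 6 h replicate 5 and control 12 days replicate 5.

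QpE against its control at 6 h showed no called member. By limma on log2(FPKM + 1), with p-values adjusted over 14484 genes by the Benjamini-Hochberg method and called under 0.05, 0 of 79 members were higher and 0 were lower, against 0.0069% of all genes higher and 0% lower. At an unadjusted p under 0.05 there were 2 members. The share of all genes at this unadjusted threshold is not given, here or in the comparisons below. Such counts therefore cannot be read as more or fewer than among all genes. The median difference was −0.03 on the log2 scale, with 28 members above 0, and −0.01 over all genes. Rpl3, a protein at the peptidyl transferase centre (15:80077794-80091868), had the smallest p of the members. Its levels were 222, 243, 238, 290.4 and 237 FPKM in controls and 356, 377, 399, 311 and 284 FPKM with QpE. The lowest QpE library was below the highest control. The difference was 0.48 (SE 0.11) with an unadjusted limma p of 0.00103 and an adjusted p of 1. Rpl23a was at 226, 224, 216, 143 and 209.6 FPKM in controls and 201, 141, 160.4, 129 and 113 FPKM with QpE, a difference of −0.46 (SE 0.17, adjusted p = 1 by limma), with overlapping groups.

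After 24 h of QpE 0 members were called higher and 0 lower by limma, as were 0% of all genes in each direction, and 2 members had an unadjusted p under 0.05. The members' median difference was 0.09, with 62 of 79 above 0, and 0.01 over all genes. Rps2 had the smallest adjusted p, 0.534. Its own gene row stood at 30.6, 56.2, 25, 55.3 and 44.1 FPKM in controls and at 24.0, 11.7, 6.27, 38.9 and 31.6 FPKM with QpE, a difference of −1.06 (SE 0.45) in which the groups overlapped. Rpl23a was the second, at 116, 226, 259, 165 and 121 FPKM in controls and 235, 255, 278, 217 and 216 FPKM with QpE, a difference of 0.50 (SE 0.22, adjusted p = 0.539 by limma). Both genes have most of their family's FPKM in copies.

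At 12 days 1 member, Rpl9, rose with QpE and no other member was called by limma, where 5.23% of all genes were called higher and 7.43% lower. Rpl9, a large subunit protein near the base of the acidic stalk, lies at 5:65388364-65391444. In controls it was at 1026, 1021, 1086, 937 and 839.8 FPKM (982 ± 95.6, SD, n = 5), and with QpE at 1318, 1284, 1799, 1378 and 1766 FPKM (1509 ± 252). All 5 QpE libraries were above all 5 controls. The difference was 0.61 on the log2 scale (SE 0.16, 95% interval 0.26 to 0.96, adjusted p = 0.0335 by limma). Both main transcripts of Rpl9 moved the same way, the annotated one from 759 ± 105 to 1132 ± 225 FPKM and an unnamed one of 1191 bases from 183 ± 16.4 to 333 ± 49.5 FPKM. The call did not hold without 7 of the 10 libraries, namely QpE replicates 3 and 5 and each of the 5 controls, with adjusted p-values up to 0.0807. It did not hold either with the gene's named transcripts alone (0.55, adjusted p = 0.0948), with its most abundant transcript (0.57, adjusted p = 0.102) or without the filter on low genes (0.61, adjusted p = 0.152). Copies held 36.2% of the FPKM of Rpl9 and its family, and with them added the difference was 0.61 (adjusted p = 0.0367).

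The other members at 12 days mostly lay above 0 without being called. Over all 79 members, Rpl9 included, the median difference was 0.18, with 70 above 0, against a median of 0.00 and 49.8% above 0 over all genes, and 4 members had an unadjusted p under 0.05. With values scaled to a fixed total per library the members' median was 0.10 with 57 above 0, while the median of all genes was −0.08. Without QpE replicate 3 it was 0.09, with 56 above 0. Within replicates 1, 2 and 5 the members' median was 0.14 with 65 above 0, and within replicates 3 and 4 it was 0.20 with 67 above 0. With replicate number as a block 2 members were higher, the second being the pseudogene Rpl6l with a difference of 0.74 (SE 0.18, adjusted p = 0.0333 by limma). Unblocked, Rpl6l had an adjusted p of 0.258.

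Among the genes with fixed roles, the stalk protein genes differed in value at 12 days. Rplp2 was at 451, 420.2, 549, 546 and 392 FPKM in controls and at 487, 546, 759, 608 and 744 FPKM with QpE, higher in 5 of 5 pairs but with overlapping groups, and its difference of 0.41 (SE 0.16) had an adjusted limma p of 0.134. Rplp0 was at 2188 ± 375 FPKM in controls and 2228 ± 214 FPKM with QpE, a difference of 0.04 with a 95% interval of −0.36 to 0.44. Rplp1 differed by 0.03 (−0.42 to 0.48). Neither interval excludes a difference of the size seen for Rplp2.

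Rps6, the substrate of S6 kinase, was at 567, 560.0, 676, 709 and 516 FPKM in controls at 12 days and at 595, 627, 959.9, 830.5 and 771 FPKM with QpE. QpE was higher in 5 of 5 pairs, the groups overlapped, and the difference of 0.31 (SE 0.16) was not called (adjusted p = 0.254 by limma). The Mdm2-binding proteins Rpl5, Rpl11 and Rpl23, which signal impaired ribosome assembly to p53, differed by 0.24, 0.17 and 0.08, and none was called. Rps27a, whose protein is made as a fusion with ubiquitin, differed by 0.07, and Rpsa by 0.25 with a 95% interval of −0.48 to 0.99. Of the relatives Rps27 and Rps27l, the first differed by 0.04 and the second by 0.21, both uncalled. Rpl10, which completes the large subunit late in assembly, was the member of the fixed roles with a negative value, −0.08.

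Rpl35a (0.48, SE 0.15, adjusted p = 0.0620) and Rpl23a (0.65, SE 0.32, adjusted p = 0.222) were higher in 5 of 5 pairs and remained uncalled by limma. This order of the pairs was not particular to them or to Rplp2 and Rps6. Other uncalled members, among them Rpl4, Rpl24, Rpl32 and Rps13, were also higher in 5 of 5 pairs. Rpl35a stood at 11.9, 11.7, 14.1, 16.3 and 10.0 FPKM in controls at 12 days and at 15.3, 24.4, 17, 18.1 and 16.7 FPKM with QpE, so that only 1 control, replicate 4, overlapped the QpE libraries. The 12-day groups also differed in markers: 2 of 11 fat cell markers were higher and none was lower with QpE (median 0.93), and 5 of 11 markers of undifferentiated fibroblasts were lower and none was higher (median −1.37). Their part in the members' levels was not tested.

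The QpE effect at 12 days was set against that at 24 h in 1 model of these 4 groups. By limma 0 members had a larger and 0 a smaller effect at 12 days, against 0.311% and 0.718% of all genes, and 2 members had an unadjusted p under 0.05. For Rpl9 the effects differed by 0.59 (SE 0.19, 95% interval 0.19 to 0.98, adjusted p = 0.107). The members' median difference of effects was 0.07, with 57 of 79 above 0, and −0.02 over all genes. The effect at 12 days was thus not called different from that at 24 h for any member.

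Time in culture was compared within the controls. From 6 h to 24 h, 4 members rose, against 10.7% of all genes, and 1 fell, against 12.3%. The members' median difference was 0.16 with 68 of 79 above 0, where the median of all genes was 0.00 and 50.8% were above 0. At an unadjusted limma p under 0.05 there were 15 members, a count given without its share over all genes. The count of 4 was 0 with all 6 groups in 1 fit or with named transcripts alone and 1 without the filter or with copies added. It lay between 1 and 8 when a library was left out, with 8 without 24 h replicate 5. With replicate number as a block it was 10, although the numbers were not taken as pairs in this comparison. Rpl3 rose by 0.57 (SE 0.13, adjusted p = 0.0136 by limma), from the 6 h levels above to 279.8, 383, 469.9, 402 and 312 FPKM at 24 h, with the groups overlapping at 1 library each. By its most abundant transcript alone the difference of Rpl3 was −0.32 (adjusted p = 0.890). Rpl3, whose QpE cultures at 6 h were at 345 ± 47.4 FPKM, was thus at 246 ± 25.9 FPKM in controls at 6 h and at 369 ± 75.2 FPKM in controls at 24 h. This call used the same 6 h controls as the QpE comparison at 6 h.

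**Figure D5:**
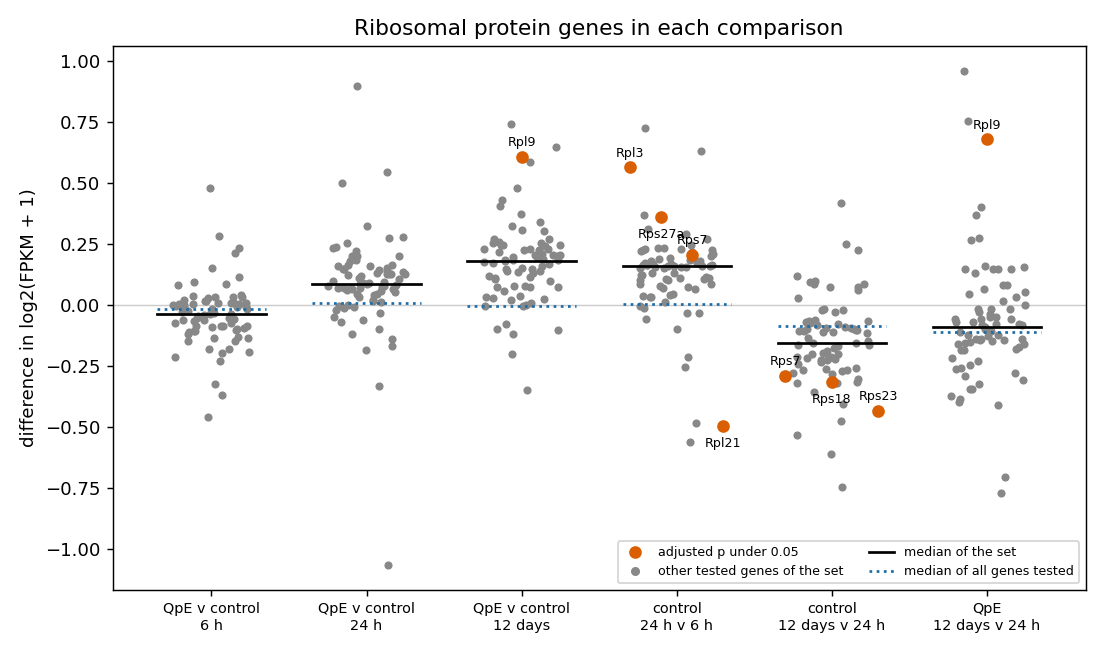
Difference in log2(FPKM + 1) of 76 ribosomal protein genes (points) in 6 comparisons, with called genes in orange, the median of all 79 tested members as a solid line and the median of all 14484 genes tested as a dotted line. The members' median is 0.18 at 12 days of QpE and 0.16 from 6 h to 24 h in controls, while the medians of all genes there are at 0.00.

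Rps27a went from 193, 196, 204, 261 and 214 FPKM to 264, 234, 294, 334 and 252 FPKM in the controls between 6 h and 24 h. The rise was 0.36 (SE 0.11, adjusted p = 0.0383 by limma), with overlapping groups. Rps7, a small subunit protein needed early in assembly (12:28630854-28635953), rose by 0.21 (SE 0.06, adjusted p = 0.0343 by limma), from 427, 376, 394, 414 and 375 FPKM to 456, 461, 460.1, 493 and 421 FPKM. Only the lowest 24 h library, replicate 5, lay within the 6 h range.

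Rpl21 was the member that fell, from 2.74, 2.93, 2.37, 2.26 and 2.57 FPKM to 1.62, 1.38, 1.57, 1.97 and 1.20 FPKM, with no overlap (−0.49, SE 0.10, adjusted p = 0.00699 by limma). With its near-identical copies, which held 99.8% of the family's FPKM, added to the gene the difference was 0.11 (adjusted p = 0.317). Leaving out any of the 10 libraries kept the calls of Rpl21 and Rpl3. Rps27a and Rps7 stayed called in 3 of these 10 fits each, with adjusted p-values up to 0.0862 and 0.0760.

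From 24 h to 12 days in controls 4 members fell, against 21.4% of all genes, and 0 rose, against 13.4% (9 members at an unadjusted p under 0.05 by limma). The count of 4 falling was 10 with replicate number as a block and 0 without the filter on low genes. The members' median difference was −0.16 with 12 of 79 above 0, and the median of all genes was −0.08 with 40.5% above 0. Rps7 fell from the 24 h levels above to 338, 374, 419.9, 398 and 347 FPKM, below every 24 h library (−0.29, SE 0.08, adjusted p = 0.0177). Rps18, which sits on the head of the small subunit (17:33951999-33956001), fell from 754, 771, 858, 928 and 789 FPKM to 585, 603, 722, 683 and 709 FPKM, also without overlap (−0.31, SE 0.10, adjusted p = 0.0275).

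Rps23, a protein beside the decoding centre (13:90922958-90924950), fell from 807, 714, 789, 890.1 and 695 FPKM to 532, 524, 683, 718 and 461 FPKM (−0.43, SE 0.13, adjusted p = 0.0303 by limma). Replicate 4 at 12 days lay above the lowest 24 h libraries. The call of Rps7 held without any single library, and those of Rps18 and Rps23 held in 6 and 4 of the 10 fits that leave out 1, with adjusted p-values up to 0.0664 and 0.0702. Without the filter on low genes no call remained, with adjusted p-values of 0.0562 for Rps7, 0.120 for Rps18 and 0.0969 for Rps23, and none was made with the most abundant transcripts alone (0.0755, 0.241 and 0.0584).

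With QpE from 24 h to 12 days Rpl9 was the called member, as 1 of 79 rose, against 17.1% of all genes, and 0 fell, against 26.2% (3 members at an unadjusted p under 0.05 by limma). Rpl9 went from 989, 1024, 1111, 759 and 821 FPKM to the 12-day levels above, with no overlap (0.68, SE 0.17, adjusted p = 0.00861), and the call held without any single library but not without the filter on low genes (adjusted p = 0.0614). In controls Rpl9 was at 951, 988, 883, 979 and 794 FPKM at 24 h and 982 ± 95.6 FPKM at 12 days. The members' median difference was −0.09 with 22 of 79 above 0, and −0.11 with 41.7% above 0 over all genes. This comparison shares the 12-day QpE libraries with the one against controls, so its Rpl9 call is no separate evidence.

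Other ribosomal genes lie outside the symbol rule. Fau, a fusion of ubiquitin-like Fubi with Rps30, was at a median of 843 FPKM, Rps3a1 at 789 and Rack1 at 473 FPKM, within the range of the members' medians. At 12 days with QpE 2 of these 11 tested genes rose, against 5.23% of all genes. They were Rpl36al, by 0.44 (adjusted p = 0.0133 by limma), and Rpl7l1, by 0.29 (adjusted p = 0.0369). From 24 h to 12 days in controls 2 fell, against 21.4% of all genes, Rpl22l1 with −0.48 and Rpl36al with −0.33. None was called in the comparisons at 6 h and 24 h of QpE or between 6 h and 24 h in controls.

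Genes that build ribosomes were examined in the same controls between 6 h and 24 h, where 12.3% of all genes were called lower and 10.7% higher. Of 30 ribosome biogenesis genes 20 fell and 0 rose (median −0.39), among them Rrs1, an assembly factor of the large subunit (−0.75, adjusted p = 0.00155 by limma), from 32.8 ± 5.36 to 19 ± 2.32 FPKM, Rrp1b (−0.70) and Bysl, one of the small subunit (−0.69), from 15.1 ± 2.16 to 8.96 ± 1.03 FPKM. RNA polymerase I genes fell in 7 of 19 cases and rose in 2, with Cd3eap at −0.81, Polr1b at −0.60 and Polr1e at −0.49, all subunit genes of the polymerase. In the list of mTORC1 and growth control genes 9 of 20 fell and 3 rose, with the mTOR inhibitor Deptor at −1.10, Myc at −0.99 and Eef2k, the kinase that inactivates Eef2, at −0.78. Of the 21 translation factors and 5′TOP mRNAs 4 rose, Eif4a2 by 0.56, Eif4b by 0.35 and Eef2 by 0.26 among them, and 1 fell. Over the same interval 4 of 79 ribosomal protein genes rose and 1 fell, and the difference between the lists was not tested.

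At 12 days with QpE, where 5.23% of all genes were called higher and 7.43% lower, the calls in the same lists were 2 of 21 translation factors, 1 of 30 biogenesis genes, 2 of 19 RNA polymerase I genes and 2 of 20 growth control genes. Eif3a (0.61) and Eif4a1 (0.36) rose among the translation factors, and the biogenesis gene Nop10 rose by 0.36. Mtor, the kinase of mTORC1, rose by 0.51 (adjusted p = 0.0150 by limma), and Pdcd4, an inhibitor of Eif4a that S6 kinase marks for degradation, was called lower with −0.51 (adjusted p = 0.0480). Among RNA polymerase I genes Rrn3 rose by 0.34 and Ubtf was lower with −0.30. The 4E-binding protein gene Eif4ebp1, a target of mTORC1, rose from 24 h to 12 days by 1.72 in controls and by 1.85 with QpE. No gene of these lists was called for QpE at 6 h or 24 h.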

How the data were processed

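The deposited table gives, per the labels and the submitters' processing notes, FPKM per transcript for 30 libraries from poly(A)-selected RNA; reads of 75 bases were processed with HISAT, HISAT2 and StringTie on GRCm38, with no versions stated. The authors' FPKM columns are recorded under the unit score, because 11 values were slightly below 0 (lowest −7e-05); these were set to 0. Read counts are not in the table, and only 47.9 to 50.3% of low values fell on whole-read steps, so depth is unknown and no count test or counting interval was made.

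The 133887 named transcripts were summed per gene, together with unnamed transcripts whose locus held a single named gene, intronic small RNA genes ignored; this last choice was made after the data had been seen. Genes at 1 FPKM or more in at least 5 libraries (14484) were tested on log2(FPKM + 1) with limma 3.58.1 in R 4.3.3 (trend, groups compared only, two-sided, Benjamini-Hochberg over all genes, threshold 0.05); fold changes on this scale understate changes of low genes. The script was tested on simulated data. Gene positions and biotypes are from GENCODE M21 (GRCm38), start sites from RefSeq.

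The named members are those with values near 0, the 4 highest and 4 lowest medians, up to the 5 largest called changes per comparison and fixed roles; other genes are up to 3 called per list. Results of a few genes are not reported here, although they stay in the counts over all members. The members and lists were chosen with earlier results of these data known. Members added for their range, copies or smallest p were chosen after their values were seen. Same-numbered cultures of the 12-day groups deviated together (correlations of 0.17 to 0.41 over genes for the 5 pairs), so the block is given there beside the result. QpE replicates 1 and 2 at 12 days correlated more with a control of another number. Alternatives covered the pseudocount (0.1), filter, scaling, transcripts summed, groups fitted, near-0 values, replicate block, single libraries, replicate subsets and, added after the data had been seen, copies and the joining of transcripts.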

Additional observations from a re-analysis of the deposited data

Results flagged for a closer look

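In 96 sets of 5 libraries, 3 held a library far from the other 4 by Dixon's criterion, which chance gives for about 1 set in 20. Rpl23a was lowest in control replicate 4 at 6 h, at 143 FPKM, and Rpsa was highest in QpE replicate 4 at 24 h, at 1314 FPKM. In QpE at 12 days replicate 3 stood apart for Rps18, at 955 FPKM.

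For 2 of 79 members all 5 same-numbered QpE and control cultures differed one way at 6 h and the other way later. The share of all genes with this pattern is not given, so the count has no background. Of these values only that of Rpl9 at 12 days was called by limma, and the numbers did not pair the samples at 6 h and 24 h. Rpl23a differed by −0.46 at 6 h, 0.50 at 24 h and 0.65 at 12 days on the log2 scale, and Rpl9 by −0.13 at 6 h and 0.61 at 12 days. The differences between 6 h and the later times were not tested.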

How the results depend on the processing

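For QpE at 12 days 1 member was called higher, and the count was 0 without the filter on low values, with named transcripts only, with the most abundant transcript only, in replicates 1, 2 and 5 only and in replicates 3 and 4 only, 3 with all 6 groups in 1 fit, and 2 with the replicate block. For controls from 6 h to 24 h 4 were higher, and the count was 1 without the filter and with copies added, 0 with all 6 groups in 1 fit, named transcripts or the most abundant transcript, and 10 with the replicate block. The 1 lower member there was 0 with named transcripts, the most abundant transcript, small RNA genes counted in joining, or copies added. For controls from 24 h to 12 days 4 were lower, and the count was 0 without the filter and with the most abundant transcript, 7 with TPM scaling, 2 with median-ratio scaling and with named transcripts, and 10 with the replicate block, while 1 was higher with small RNA genes counted. For QpE from 24 h to 12 days the 1 higher became 0 without the filter, and the 0 lower became 2 with TPM scaling, 2 with all 6 groups and 1 with copies added. The difference of effects gave 1 member, Rpl9, with all 6 groups. Leaving out 1 library gave 0 to 1 higher for QpE at 12 days, 1 to 8 higher for controls from 6 h to 24 h, 1 to 8 lower for controls and 0 to 2 lower for QpE from 24 h to 12 days. With copies added Rpl21 was at 0.11, and with the most abundant transcript Rpl3 was at −0.32, both against the direction reported. Named transcripts only, or small RNA genes counted, gave 1 member under 1 FPKM in place of 0, and 2 under 10% of their median in place of 0. In the other comparisons the correlations of same-numbered cultures were not over 0.1 in every pair: at 6 h of QpE 4 pairs had 0.15 to 0.20, each with its own number best, and 1 had 0.04, and the lowest at 24 h was 0.03. The numbers were therefore not taken as pairs there, although the members' levels went with them in every group, and the replicate block changed no other count by over 1.5 times. The causes were not tested. With 5 cultures per group and no counts, intervals are wide for members with strong spread, and levels of members with near-identical copies depend on how reads were shared among them.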
